A study of Mus musculus with 9 samples.

Results

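The nuclear genes of mitochondrial complex I were followed by chromatin accessibility through the reprogramming of mouse embryonic fibroblasts (MEFs) into induced pluripotent stem cells (iPSCs). The genes were all protein-coding genes of chromosomes 1 to 19 whose symbol begins with Ndufa, Ndufb, Ndufc, Ndufs or Ndufv, which gave 41 gene records with 40 symbols of 21418 protein-coding genes. The X-linked Ndufa1 and Ndufb11 lie outside this choice. One of the 41 was a second record named Ndufb8, an incomplete model whose start was not found and which overlaps the complete Ndufb8 gene on chromosome 19. The rule reads symbols and chromosomes only.

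ATAC-Seq, in which the Tn5 transposase cuts accessible chromatin, had been done on 9 libraries, 1 for each condition, and no condition had a replicate. MEFs whose Oct4 gene was tagged with GFP had been infected with pMXs retroviruses carrying Sox2, Klf4, Oct4 and c-Myc (OSKM) and kept in feeder-free medium, with days counted from the induction of these factors. The time course held 7 libraries: unsorted cells of day 0 (D0) and day 3 (D3), Thy-1-negative cells of day 6 (D6T-) and day 9 (D9T-), SSEA-1-positive cells of day 12 (D12S+) and day 16 (D16S+), and unsorted iPSCs. The 2 other libraries were Thy-1-negative day 6 cells treated with siRNA. In D6 siH3.3 the histone H3 variant H3.3 had been knocked down at the start of reprogramming, and its counterpart D6 siNT had a non-targeting siRNA. The paper describes this knockdown as transient, with the early siRNA given before day 0. Thy-1 is a surface protein of fibroblasts and SSEA-1 a carbohydrate of pluripotent cells, so each sorted population holds the cells that passed 1 such gate.

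Complex I, the NADH:ubiquinone oxidoreductase, is the entry point of the respiratory chain for electrons from NADH. Its peripheral arm reaches into the mitochondrial matrix, where a flavin takes the electrons and a chain of iron-sulfur clusters hands them to ubiquinone, and its membrane arm pumps protons across the inner membrane. The core subunits that do this work are inherited from the bacterial ancestor, and some of them are encoded by mitochondrial DNA, which was not part of these files. The remaining core subunits and all accessory subunits are made from nuclear genes scattered over the chromosomes, and dedicated assembly factors join the parts. Somatic cells such as fibroblasts draw much of their energy from this chain, whereas pluripotent cells are known for a strong use of glycolysis.

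A promoter was taken as 1 kb on each side of the transcription start site (TSS). It was called open in a library when a merged peak overlapped it by at least 1 bp. Its level was the highest deposited pileup in that peak, which counts the tags that cover a summit once extended, per 1000000 tags of the library (CPM). Depth ran from 13213117 tags at D9T- to 31714845 at D0. Peaks were called down to a pileup of 7 to 11 tags, depending on the library, or 0.331 CPM at D3 and 0.530 CPM at D9T-. An opening below that was not detectable. Since there was 1 library per condition, no difference below was tested, and the 95% intervals of ratios cover counting error only. In a mixed population, fewer cells with an open promoter and a weaker opening in every cell cannot be told apart.

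The labels were checked against marker genes, and the lists separated the libraries only in part. Of 8 pluripotency genes, 2 were open at D0, 4 at D3, 2 each at D6T-, at D9T- and in D6 siH3.3, 1 in D6 siNT, 6 at D12S+ and 7 each at D16S+ and in iPSCs. Nanog and Zfp42 were open at D12S+, D16S+ and in iPSCs alone, whereas Utf1 was open in 8 libraries, D0 among them, Dppa5a and Tdh also at D3, and Esrrb in none. Pou5f1, the gene of Oct4, was open in every library, at 13.1 CPM already at D0. Whether the tagged Oct4 gene or the Oct4 retrovirus contributed to this value was not tested. Of 8 fibroblast markers, 5 were open at D0, 8 at D3, 7 at D6T-, 3 at D9T-, 6 each at D12S+ and D16S+, 4 in iPSCs and 5 in each siRNA library, so this list did not set fibroblasts apart. Thy1 had no peak in the 4 Thy-1-negative libraries, but its weak peaks at D12S+ (0.625 CPM), D16S+ (0.567) and in iPSCs (0.489) were no lower than that at D0 (0.410). Of 3 endothelial genes, Tek was open in 8 libraries, Pecam1 in 3 and Cdh5 in none, and of 3 blood genes, Cd34 in 8, Sfpi1 in 1 and Ptprc in none. The part of other cell types in the complex I values was not tested.

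The sequence just upstream of the TSS is shown for the genes with the highest and the lowest median level among 26 genes considered for display, which have no annotated exon there. All positions are those of mm9, and each run is the 150 bases that end at the base before the TSS, written 5′ to 3′ on the strand of the gene. Capitals mark every CG dinucleotide, because CpG-rich promoters are commonly open in many cell types. Ndufa6 and Ndufab1 had the highest medians of these genes and Ndufa4l2 and Ndufaf1 the lowest. The median of a gene is over the libraries in which it had a peak.
Ndufa6, chr15:82184722-82184871, minus strand: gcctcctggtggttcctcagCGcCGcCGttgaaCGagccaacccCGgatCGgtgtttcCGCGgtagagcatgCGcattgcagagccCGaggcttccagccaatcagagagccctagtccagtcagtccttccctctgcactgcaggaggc
Ndufab1, chr7:129245401-129245550, minus strand: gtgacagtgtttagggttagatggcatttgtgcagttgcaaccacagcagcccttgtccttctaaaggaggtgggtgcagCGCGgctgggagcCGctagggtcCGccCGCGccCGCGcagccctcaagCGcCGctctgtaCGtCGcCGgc
Ndufa4l2, chr10:126951845-126951994, plus strand: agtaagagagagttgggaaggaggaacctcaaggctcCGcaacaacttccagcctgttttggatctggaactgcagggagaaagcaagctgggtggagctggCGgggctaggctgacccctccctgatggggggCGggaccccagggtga
Ndufaf1, chr2:119488564-119488713, minus strand: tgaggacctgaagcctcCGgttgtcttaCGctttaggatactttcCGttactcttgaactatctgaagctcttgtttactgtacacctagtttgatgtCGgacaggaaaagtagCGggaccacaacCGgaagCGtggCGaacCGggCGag
Ndufa6, an accessory subunit, held 10 CG dinucleotides in this stretch and Ndufab1, the acyl carrier protein, held 13. Ndufaf1, an assembly factor, also held 10 although its promoter was among the weakest, whereas Ndufa4l2 held 3.

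The recognition sequence of NRF1, a transcription factor known for its control of nuclear genes of the respiratory chain, was searched as GCGC, any base, TGCGC on both strands, from 250 bases before to 50 bases after the TSS. It was found in 7 of the 41 promoters (17.1%), against 6.14% of all protein-coding promoters and 12% of those open in all 9 libraries. Each match is given with its surroundings of up to 30 bases on the strand of the gene, where capitals mark the match, and Ndufb4 held it at 2 places.
Ndufa11, chr17:56857115-56857144, plus strand: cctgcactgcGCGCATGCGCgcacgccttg
Ndufa6, chr15:82184679-82184708, minus strand: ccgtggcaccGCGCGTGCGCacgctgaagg
Ndufa8, chr2:35904877-35904898, minus strand: ctagagcagtGCGCTTGCGCgt
Ndufaf4, chr4:24825107-24825136, plus strand: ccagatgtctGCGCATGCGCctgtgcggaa
Ndufb4, chr16:37654626-37654655, minus strand: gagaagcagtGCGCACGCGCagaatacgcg
Ndufb4, chr16:37654514-37654543, minus strand: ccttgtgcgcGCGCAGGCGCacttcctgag
Ndufs5, chr4:123395508-123395537, minus strand: gctgcttgctGCGCAGGCGCagacccgctg
Ndufs7, chr10:79711825-79711854, plus strand: ttgctttagcGCGCAAGCGCacttcacaat
The genes with a match were Ndufa11, Ndufa6, Ndufa8, Ndufaf4, Ndufb4, Ndufs5 and Ndufs7, which are spread over the peripheral arm, the membrane arm and the assembly factors. All 7 were open in all 9 libraries, as were 83.1% of all promoters with this match.

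The letters AAGATGGCG, the core of the site of YY1, stood in 4 promoters (9.76%), against 1.84% of all promoters and 3.24% of those open in all 9 libraries. The match is given for Ndufa9 and Ndufs4, again in capitals.
Ndufa9, chr6:126799115-126799143, minus strand: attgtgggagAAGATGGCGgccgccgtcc
Ndufs4, chr13:115178253-115178277, minus strand: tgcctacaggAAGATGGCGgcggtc
The match began 29 bases downstream of the TSS in Ndufa9 and 35 bases downstream in Ndufs4, on the strand of the gene. The ETS site CCGGAAGT was found in Ndufs1 alone (2.44%, against 4.76% of all promoters and 9.02% of those open in all 9 libraries), and the site of the estrogen-related receptors, TCAAGGTCA, in none of the 41 (0.36% of all promoters and 0.286% of those open throughout). The GC box GGGCGGGG stood in 9 promoters (22%, against 22.3% of all and 36.6% of those open throughout) and CCAAT in 13 (31.7%, against 37.6% and 41.3%). TATAAA stood in 4 (9.76%), below the 13.5% of all promoters and above the 6.02% of those open throughout. The median ratio of observed to expected CG dinucleotides was 0.782 for complex I genes, 0.544 for all promoters and 0.799 for those open in all 9 libraries. A match of letters is a description and no binding was measured here.

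Most complex I promoters were open throughout. In all 9 libraries 33 of the 41 gene records (80.49%) had a peak, against 42.5% of all protein-coding genes. At D0, 39 were open against 54.6% of all genes, at D3 40 against 65.8%, at D6T- 39 against 64.9% and at D9T- 35 against 48.4%. In the SSEA-1-positive cells and iPSCs there were 39 at D12S+ (60.6% of all genes), 40 at D16S+ (61.1%) and 40 in iPSCs (62.6%). With siRNA, 39 were open in D6 siNT (52.7%) and 35 in D6 siH3.3 (52%). The incomplete Ndufb8 record had no peak in any library, so that the other 40 were each open at least in 4.

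**Figure D1:**
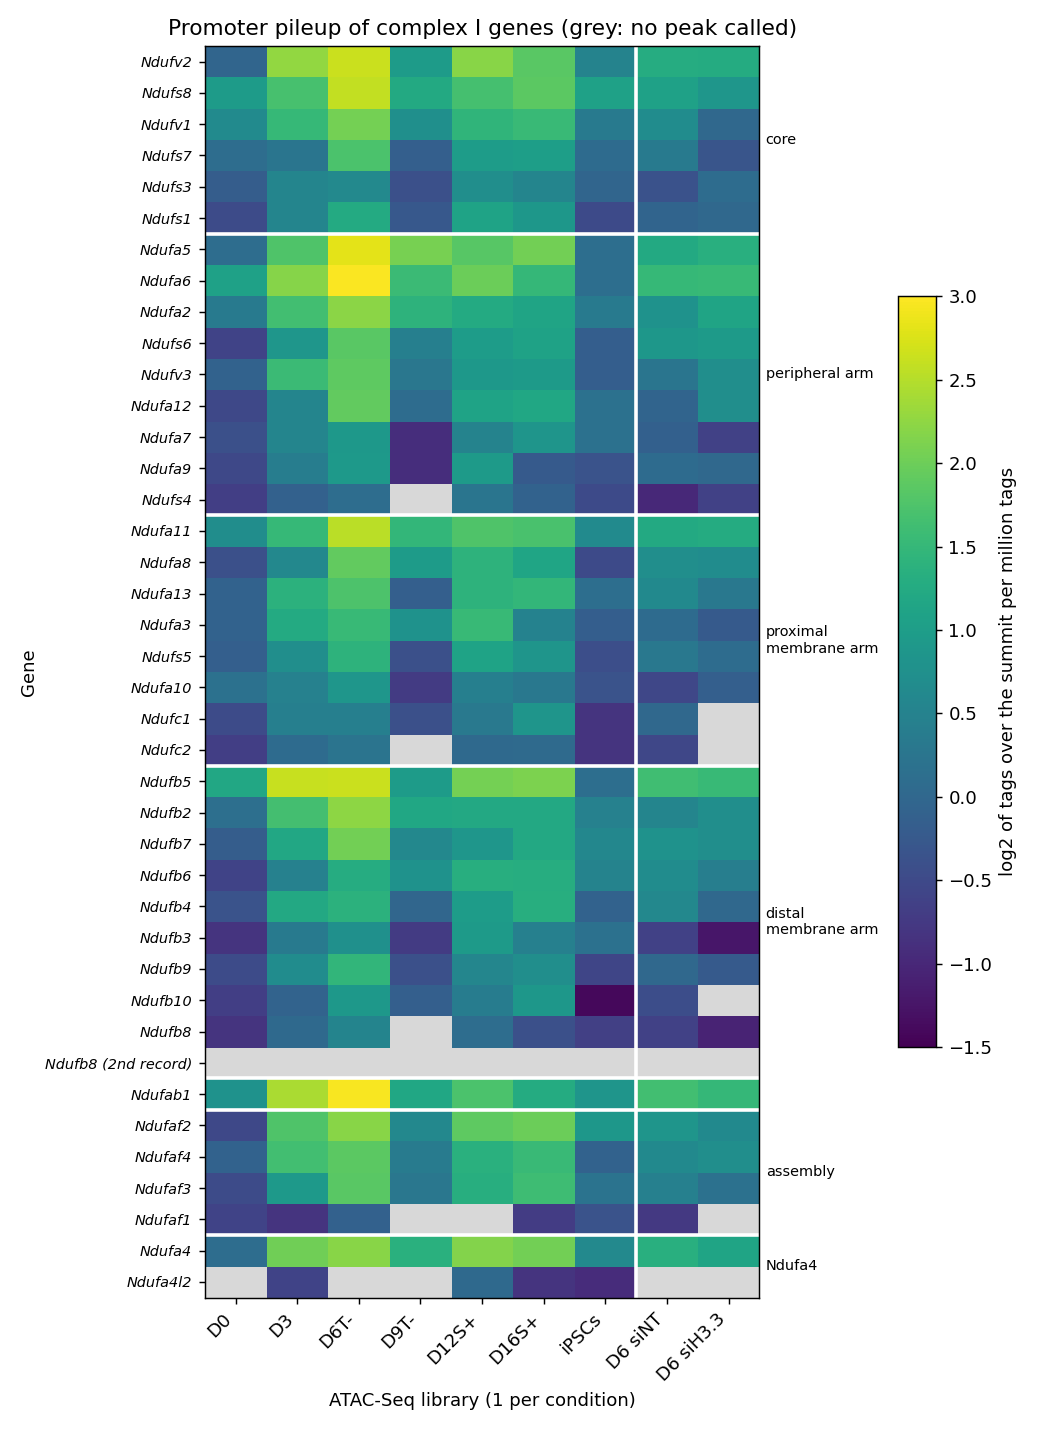
Promoter level of complex I gene records (rows, by place in the complex) in each ATAC-Seq library (columns, 1 per condition), as log2 of the tags over the summit per 1000000 tags, with grey where no peak was called. The D6T- column is the brightest, the core subunits have no grey cell, and most grey cells lie in D9T-, D6 siH3.3 and the rows of Ndufa4l2 and the incomplete Ndufb8 record.

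The core subunits were open in all 9 libraries. Ndufv2, an iron-sulfur subunit of the NADH-oxidising end, had 0.978 CPM at D0, 4.80 on day 3 and 6.26 in D6T- cells, then 1.97 in D9T-, 4.60 in D12S+ and 3.59 in D16S+ cells and 1.43 in iPSCs, with 2.43 in D6 siNT and 2.41 in D6 siH3.3. It was highest at D6T- and lowest at the ends of the time course. Ndufs8, which carries iron-sulfur clusters on the way to ubiquinone, ranged from 1.82 CPM in D6 siH3.3 to 6.03 at D6T- (median 2.35 over the 9 libraries). Ndufv1, which binds NADH and the flavin, ranged from 1.02 to 4.16 (median 1.67) between the same libraries. The weaker core promoters were those of Ndufs7, which holds the last iron-sulfur cluster (0.803 to 3.32, median 1.19), Ndufs3, a subunit of the peripheral arm near ubiquinone (0.757 to 1.65, median 1.07), and Ndufs1, the largest core subunit (0.715 to 2.38, median 1.02).

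Of the 9 accessory subunits of the peripheral arm, 8 were open in all libraries. Ndufa5 and Ndufa6 stood highest among them. Ndufa5 ranged from 1.07 CPM at D0 to 7.06 at D6T- (median 3.41, the highest of all members). Ndufa6, which docks the acyl carrier protein on the complex, had 2.11 CPM at D0, 4.56 on day 3 and 7.85 in D6T- cells, then 2.95 in D9T-, 3.97 in D12S+ and 2.83 in D16S+ cells and 1.09 in iPSCs, with 2.85 in D6 siNT and 2.89 in D6 siH3.3. Its range of 7.20-fold was the largest of the 33 members open everywhere, whose smallest was 2.18-fold (Ndufs3) and whose median was 4.09-fold. Ndufs4, a subunit best known from Leigh syndrome, was the exception with no peak at D9T-, and reached 0.631 CPM at D0, 0.926 on day 3, 1.08 in D6T- cells, 1.19 in D12S+ cells, 0.945 in D16S+ cells, 0.715 in iPSCs, 0.505 in D6 siNT and 0.643 in D6 siH3.3. These were all low levels, and the lowest pileup called at D9T- was 0.530 CPM.

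The proximal membrane arm and the Ndufb subunits of the distal arm held most of the promoters that were not always called. Of the 8 accessory subunits of the proximal part, 6 were open in all libraries, and the remaining pair was the small subunits Ndufc1 and Ndufc2. Ndufc1 had 0.725 CPM at D0, 1.36 both at D3 and at D6T-, 0.757 in D9T- cells, 1.25 in D12S+ cells, 1.80 in D16S+ cells, 0.564 in iPSCs, 1.01 in D6 siNT and no peak in D6 siH3.3. Ndufc2 had peaks from 0.564 CPM (iPSCs) to 1.17 CPM (D6T-) in 7 libraries and none at D9T- and in D6 siH3.3. Ndufa11, which sits in the membrane arm, had the highest median of this set (1.58 to 5.80 CPM, median 2.80). Its window also holds the start of Vmac, read in the opposite direction, at -63 bp from the TSS, where negative is upstream. The strongest summit lay beyond that start, between -700 and -610 bp, and which gene of the pair these values belong to cannot be told apart.

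Among the 10 Ndufb records, 7 were open in all libraries. Ndufb5 (chr3:32635912-32650488, plus strand) led with 2.30 CPM at D0, 6.15 on day 3 and 6.22 in D6T- cells, then 1.97 in D9T-, 4.15 in D12S+ and 4.30 in D16S+ cells and 1.09 in iPSCs, with 3.08 in D6 siNT and 2.89 in D6 siH3.3. Ndufb8 had no peak at D9T- and from 0.482 to 1.45 CPM elsewhere. Ndufb10 had no peak in D6 siH3.3 and from 0.376 CPM in iPSCs to 1.87 at D6T- elsewhere. The value of Ndufb10 in iPSCs was 10 tags, the lowest pileup called in that library. Ndufb9 was called everywhere at a low median of 1.01 CPM.

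Ndufab1, the mitochondrial acyl carrier protein that is also a subunit, was open in all 9 libraries at 1.73 (D0) to 7.71 CPM (D6T-), with a median of 2.84. The assembly factors split. Ndufaf2, which acts on the peripheral arm, was open throughout, and so were Ndufaf3 (0.725 to 3.60 CPM) and Ndufaf4 (0.941 to 3.65 CPM), which act together at an early step. Ndufaf1, which works on the membrane arm, had 0.662 CPM at D0, 0.562 on day 3, 0.935 in D6T- cells, 0.614 at D16S+, 0.790 in iPSCs and 0.597 in D6 siNT, and no peak at D9T-, at D12S+ and in D6 siH3.3. It was the only one of the assembly factors here that lacked a peak in any library.

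Ndufa4 and Ndufa4l2 are paralogs with unlike levels at their promoter windows in these data. The window of Ndufa4 also holds the start of Phf14, at -363 bp and read in the opposite direction. The strongest Ndufa4 summit lay between -376 and -168 bp, and which gene of the pair it belongs to cannot be told apart. Ndufa4, first described with complex I and now counted with complex IV, had 1.07 CPM at D0, 4.07 on day 3 and 4.58 in D6T- cells, then 2.57 in D9T-, 4.49 in D12S+ and 4.11 in D16S+ cells and 1.54 in iPSCs, with 2.53 in D6 siNT and 2.20 in D6 siH3.3. Ndufa4l2, a gene known for its induction in low oxygen, had 0.662 CPM at D3, 1.02 at D12S+, 0.567 at D16S+ and 0.527 in iPSCs, and no peak in the remaining 5 libraries. Its summits stood at no fixed place, from -1375 bp at D3 to 14 bp at D16S+ relative to the TSS, where negative is upstream. At D3 and at D12S+ (-1086 bp) the summit lay outside the promoter window, which the peak only overlapped. A further region near the end of this short gene, over an exon with its summit from 1.7 to 1.94 kb downstream of the TSS, was called at D3, D6T-, D12S+, D16S+ and in iPSCs, with 1.09 CPM at D16S+ as its highest level.

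Levels were also read against all open promoters of the same library, which removes the scale of the library. The median complex I promoter stood at percentile 55.3 at D0, 57.1 on day 3, 64.1 in D6T- cells, 50.0 in D9T- cells, 57.6 in D12S+ cells, 60.8 in D16S+ cells and 56.1 in iPSCs, and at 63.0 in D6 siNT and 64.2 in D6 siH3.3. Complex I promoters as a group were therefore near the middle of the open promoters, with medians of 0.883 against 0.820 CPM for all at D0, 3.60 against 2.71 at D6T-, 1.36 against 1.36 at D9T- and 1.07 against 1.02 in iPSCs. Single genes kept far apart: the median percentile over the libraries with a peak was 91.3 for Ndufa6 and Ndufb5 and 12.2 for Ndufa4l2. Ndufa4l2 had a peak in 4 libraries. By place in the complex it was 70.2 for the core subunits, 56.3 for the peripheral accessory subunits, 51.5 for the proximal membrane arm, 48.5 for the Ndufb genes and 62.9 for the assembly factors.

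**Figure D2:**
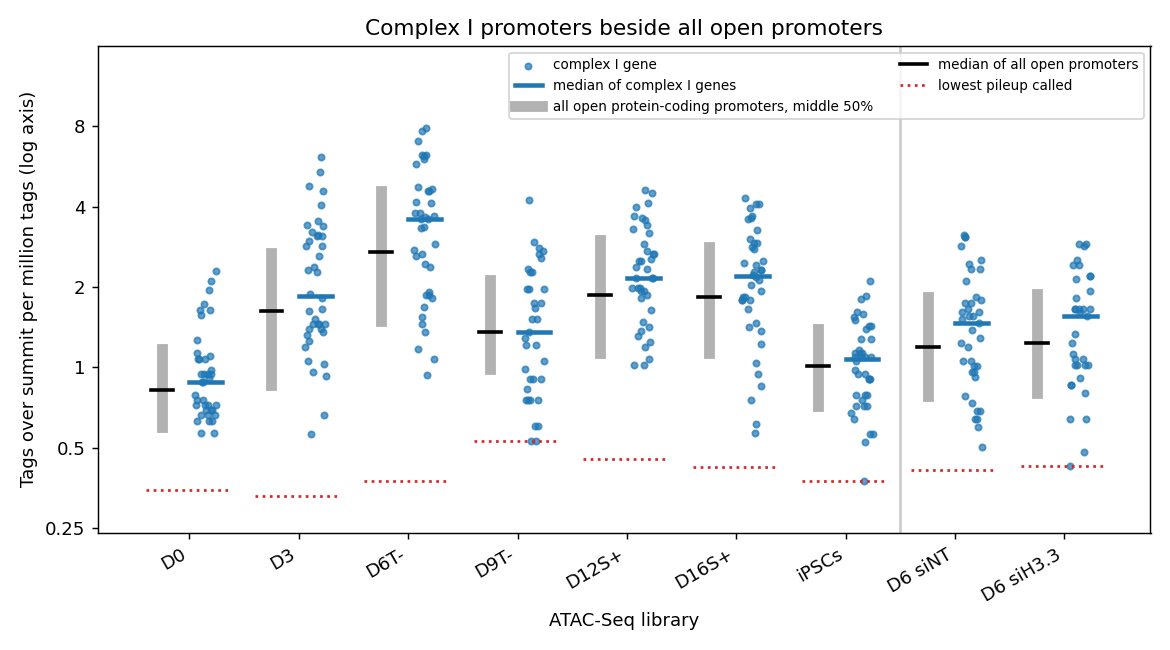
Levels of the complex I promoters with a peak (blue points, 1 per gene, with their median as a blue line) beside the middle 50% and median of all open protein-coding promoters (grey bar, black line) in each library, on a log axis of tags over the summit per 1000000 tags, with the lowest pileup called as a red dotted line. The complex I median lies close to the median of all open promoters at D0, D9T- and in iPSCs and above it at D6T-, and the lowest complex I values at D9T-, in iPSCs and in D6 siH3.3 lie on the lowest pileup called.

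Between D0 and D3, the first days with OSKM, 24 of the 40 promoters open in either library were at least 2-fold higher and 0 at least 2-fold lower, against 57.8% higher among all promoters, which is a like share. The median log2 ratio was 1.11 for complex I genes and 1.2 for all promoters open in both libraries, so the median member rose no more than the median promoter. Of the 39 members open in both, 16 lay above and 23 below the median of all. The steepest were Ndufv2, from 0.978 to 4.80 CPM (4.91-fold, interval 3.31 to 7.49), and Ndufaf2, from 0.694 to 3.37 CPM (4.86-fold, interval 3.05 to 8.10). Ndufaf1, at 0.662 and 0.562 CPM, was the only one of 39 whose ratio lay below 1 (0.849, interval 0.421 to 1.69). Of all promoters open in both, 444 of 11374 had a ratio below 1. Ndufs7 stayed at 1.07 and 1.19 CPM. When the pileup was instead divided by the median of all open promoters, 3 members differed by at least 2-fold, 2 upward and 1 downward, against 10.3% of all promoters.

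From D3 to D6T- 5 of 40 were at least 2-fold higher, a smaller share than the 20.1% of all promoters, with a median log2 ratio of 0.55 for members and 0.71 for all. Of the 33 promoters open everywhere, 29 had their highest level at D6T- and the other 4 at D12S+, where all promoters open everywhere had 90% and 3.45% of theirs. Their lowest level was at D0 for 13 (64.1% of all promoters open everywhere), in iPSCs for 10 (18.8%), at D9T- for 5 (4.22%) and in D6 siH3.3 for 5 (6.01%). The other day 6 library of Thy-1-negative cells without knockdown, D6 siNT, was far lower than D6T-, with a median log2 ratio of -1.40 over all promoters and -1.31 over complex I genes. In that comparison 30 of 39 members and 76.8% of all promoters were at least 2-fold lower. The cells of D6 siNT had received a non-targeting siRNA, and with 1 library each the treatment and the library cannot be told apart.

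Between D6T- and D9T-, 31 of 39 members were at least 2-fold lower and 0 higher, a larger share than the 66.4% of all promoters. Where D9T- had no peak the lowest pileup called stood in, so the weakest promoters of D6T- could not pass. Of the 4 members with a peak at D6T- alone, Ndufb8, Ndufc2 and Ndufs4 passed against this stand-in and Ndufaf1 did not. Among genes with a peak in both libraries the shares were closer, with 28 of 35 members lower and 73.9% of all promoters different by at least 2-fold. The median log2 ratio was -1.44 for members and -1.28 for all. The lowest ratios belonged to Ndufa13, a subunit anchored in the membrane (3.37 to 0.908 CPM, ratio 0.270, interval 0.133 to 0.501), Ndufs7 (3.32 to 0.908 CPM, ratio 0.274, interval 0.135 to 0.508) and Ndufb9 (2.76 to 0.757 CPM, ratio 0.274, interval 0.125 to 0.541). The highest belonged to Ndufb6 (2.43 to 1.74 CPM, ratio 0.716), Ndufa3 (2.90 to 1.74 CPM, ratio 0.601) and Ndufa5 (7.06 to 4.24 CPM, ratio 0.60). The strongest summit of Ndufa13 lay at 871 bp from the TSS at D6T- and at -796 bp at D9T-, so its ratio compares different places. Relative to the median of all open promoters, 0 members differed by at least 2-fold between these libraries, against 9.18% of all promoters.

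From D9T- to D12S+ 17 of 39 members were at least 2-fold higher, a larger share than the 24.4% of all promoters, with a median log2 ratio of 0.80 for members and 0.64 for all. Between the SSEA-1-positive cells of day 12 and day 16 hardly anything differed (median log2 ratio 0.02 for members, -0.05 for all). Here 2 of 40 members were at least 2-fold lower, against 2.01% of all promoters. These were Ndufa9, a subunit at the junction of the arms (1.93 to 0.85 CPM, ratio 0.440, interval 0.234 to 0.802), and Ndufa3 (2.90 to 1.42 CPM, ratio 0.489, interval 0.301 to 0.783). From D16S+ to iPSCs 22 of 40 members were at least 2-fold lower, a larger share than the 35.5% of all promoters, with medians of -1.07 and -0.84. Ndufb10 had the lowest ratio (1.84 to 0.376 CPM, 0.204, interval 0.0909 to 0.417), and Ndufaf1 was the only one of 40 above 1 (0.614 to 0.790 CPM, 1.29, interval 0.615 to 2.80). Of all promoters open in both, 11688 of 12588 had a ratio below 1.

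**Figure D3:**
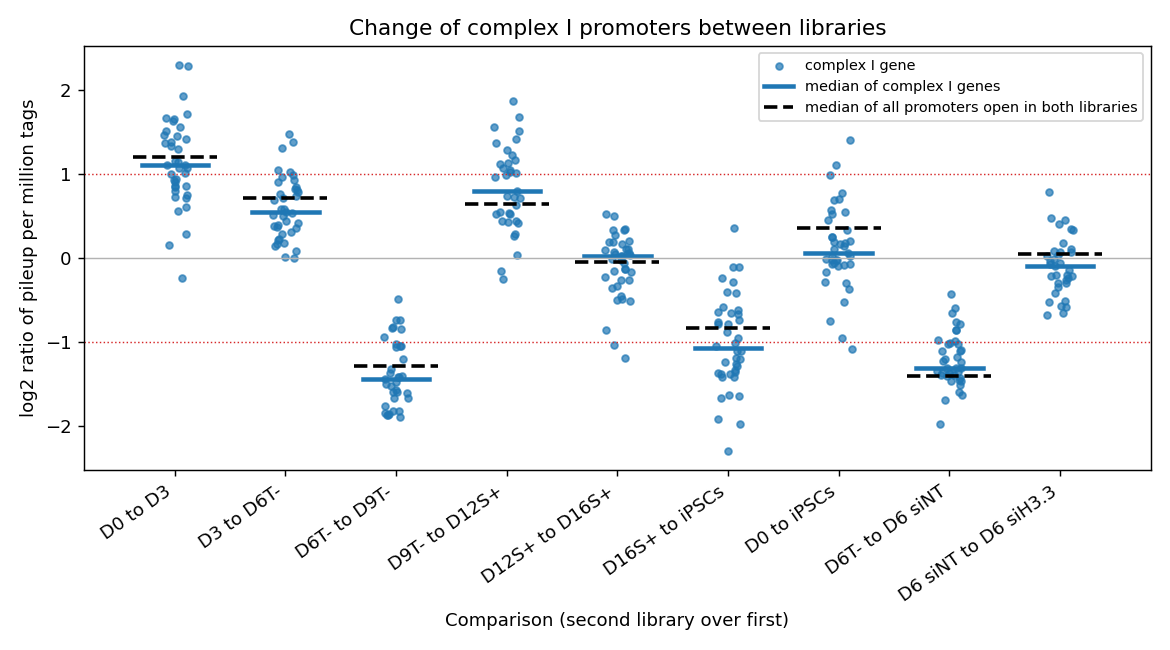
Log2 ratio of the promoter level between the libraries named below each column (second over first), 1 point per complex I gene open in both, with the median of complex I genes (blue line), the median of all promoters open in both (black dashes) and the 2-fold limits (red dots). The complex I median lies within 0.30 of that of all promoters in each column and is farthest from it, 0.30 below, for D0 to iPSCs. For D12S+ to D16S+ and for D6 siNT to D6 siH3.3 the medians have opposite signs.

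The start and the end of the time course were set side by side, since these unsorted libraries frame the change of identity. For complex I genes the median log2 ratio of iPSCs over D0 was 0.06, and for all promoters open in both libraries it was 0.35. Of the 39 members open in both, 10 lay above and 29 below the median of all. In CPM, 22 were higher and 17 lower in iPSCs, whereas 2602 of the 10897 promoters open in both were lower. Only 3 of 40 passed 2-fold: 2 were higher, against 16.2% of all promoters, and 1 lower, against 1.56%. These shares include promoters with a peak in 1 library alone, set against the lowest pileup called. With only genes that had a peak in both libraries, 3 of 39 members passed in either direction, against 11.6% of all promoters.

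The 2 that were higher were Ndufaf2 (chr13:108842784-108948819) and Ndufb6 (chr4:40217624-40226454), both on the minus strand. Ndufaf2 had 0.694 CPM at D0, 3.37 on day 3 and 4.58 in D6T- cells, then 1.51 in D9T-, 3.69 in D12S+ and 3.97 in D16S+ cells and 1.84 in iPSCs, with 1.79 in D6 siNT and 1.55 in D6 siH3.3, and its ratio of iPSCs over D0 was 2.66 (interval 1.58 to 4.62). Ndufb6 had 0.662 CPM at D0, 1.39 on day 3 and 2.43 in D6T- cells, then 1.74 in D9T-, 2.50 in D12S+ and 2.46 in D16S+ cells and 1.43 in iPSCs, with 1.61 in D6 siNT and 1.34 in D6 siH3.3, with a ratio of 2.16 (interval 1.24 to 3.87). Both were lower at D0 than in each of the other 8 libraries. The next, Ndufb3, had 0.568 CPM at D0 and 1.13 in iPSCs (ratio 1.99, interval 1.07 to 3.79), just short of 2-fold.

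The 1 that was lower was Ndufb5, at 2.30 CPM at D0 and 1.09 in iPSCs (ratio 0.474, interval 0.297 to 0.738). Its D0 level was the highest of any complex I gene at D0, and its iPSC level was near the complex I median of that library. Ndufa6 followed the same course, from 2.11 to 1.09 CPM (ratio 0.516, interval 0.322 to 0.810), and Ndufb10 had 0.631 and 0.376 CPM (ratio 0.597, interval 0.249 to 1.34). Ndufb5 and Ndufa6 were thus in the top rank at D0 and in the middle in iPSCs, while the core subunits Ndufs1 (0.725 and 0.715) and Ndufs7 (1.07 and 1.05) had nearly the same level at both ends. Scaled to the median of all open promoters, 4 members differed by at least 2-fold, 1 upward and 3 downward, against 10.9% of all promoters, which is a like share. The window of Ndufb5 also holds the start of Mrpl47 and that of Ndufaf2 the start of Ercc8, and which gene of a pair these values belong to cannot be told apart. Without the members that share a window, 1 of 26 passed 2-fold.

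**Figure D4:**
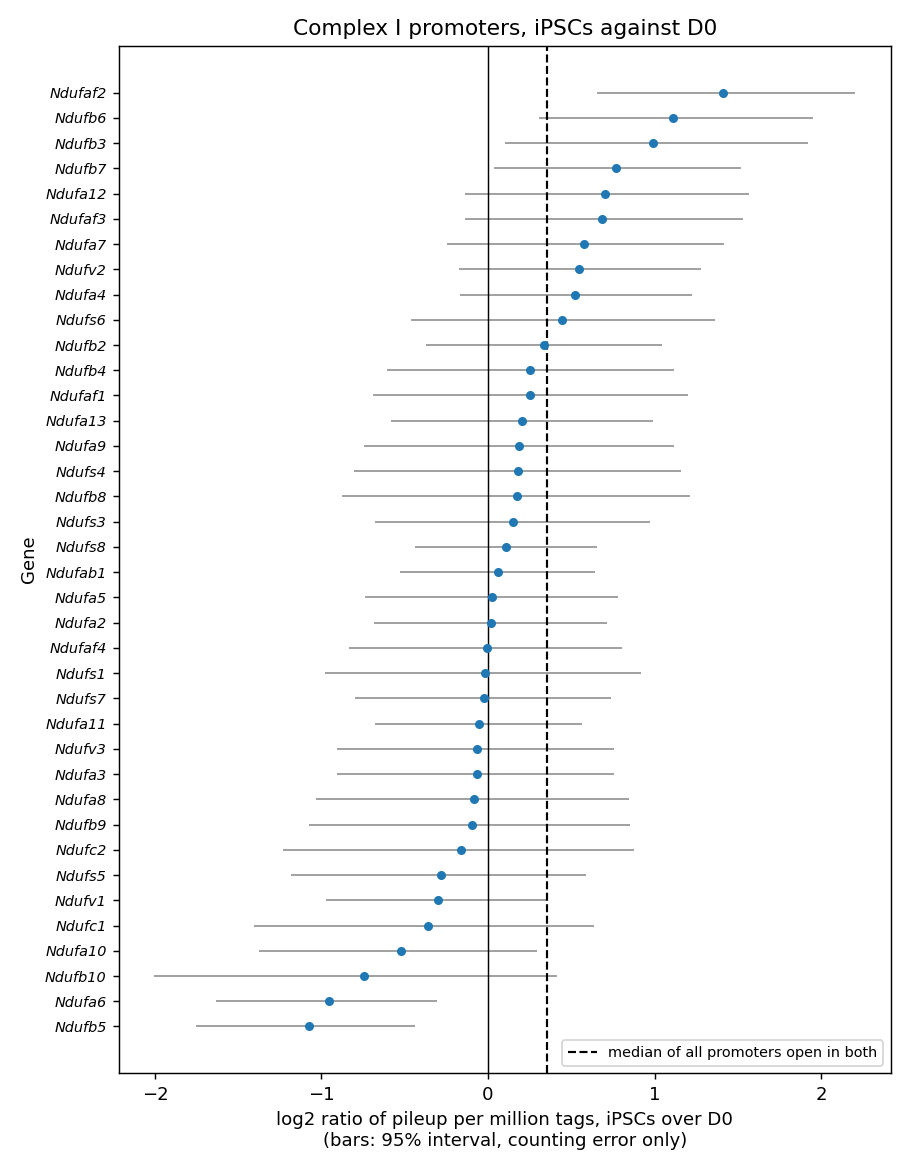
Log2 ratio of the promoter level in iPSCs over D0 for complex I genes open in both libraries (points, with bars for the 95% interval of counting error only), beside the median of all promoters open in both (dashed line at 0.35). Ndufaf2 and Ndufb6 lie above 1, Ndufb5 lies below -1, and most of the points lie left of the dashed line.

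By place in the complex the median log2 ratio of iPSCs over D0 was -0.02 for the core subunits, 0.18 for the peripheral accessory subunits, -0.12 for the proximal membrane arm, 0.25 for the Ndufb genes and 0.47 for the 4 assembly factors. Other genes of the same pathway were read in the same way, on lists made from symbols. The median was 0.09 for complex II, 0.41 for complex III, 0.15 for complex IV, 0.52 for complex V and 0.13 for the mitochondrial ribosome, against 0.35 for all promoters. Other complex I assembly factors, which do not bear the Nduf name, had 0.06 over 8 genes. Glycolysis had 0.20 and the regulators of mitochondrial genes 0.53. The lists thus lay on either side of all promoters, and complex I was among the lower. The complex IV and V lists took symbols by their first letters. They may hold genes that share the name alone, such as Cox4nb, Atp5sl and Atp5l-ps1. Cox4nb had the level of Cox4i1 in all 9 libraries.

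The other lists were counted in the same way. In all 9 libraries 7 of 8 other assembly factors had a peak, as did 3 of 4 genes of complex II, 7 of 9 of complex III, 11 of 18 of complex IV, 15 of 18 of complex V, 60 of 77 of the mitochondrial ribosome and 14 of 19 of glycolysis. The genes without a constant peak were in part the tissue-restricted forms: Cox6a2 and Cox8b, the muscle forms of complex IV subunits, were open in no library, and Cox4i2 and Cox7b2 in 1 each. In the glycolysis list Hk1 was open in no library and Ldha in 1. The window sits at the 5′ end of the gene record, so a start elsewhere was not read. Nubpl, an iron-sulfur assembly factor of complex I, lacked a peak in D6 siNT alone. Sdha, the catalytic subunit of complex II, lacked one at D0 alone. Of 13 regulators 11 were open in all libraries, Nrf1 and Yy1 among them, while Ppargc1a was open in 2 and Esrrb in none.

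The siRNA libraries addressed how H3.3 acts on the choice of cell fate, with a knockdown that was early and transient. Complex I promoters had a median log2 ratio of -0.09 for D6 siH3.3 over D6 siNT, and all promoters had 0.05. Of the 35 open in both, 11 lay above and 24 below the median of all, and none differed by 2-fold. Of the 39 open in either, 1 was at least 2-fold lower and 0 higher, against 0.725% of all promoters lower and 0.725% higher. That gene was Ndufc1 (chr3:51208599-51212910, minus strand), with 1.01 CPM in D6 siNT and no peak in D6 siH3.3, set against the lowest pileup called there, 0.428 CPM (0.424-fold). Ndufb10 (0.735 CPM), Ndufc2 (0.689 CPM) and Ndufaf1 (0.597 CPM) also had a peak in D6 siNT and none in D6 siH3.3, and 0 members had the reverse. Of all promoters open in either library, 6.08% had a peak in D6 siNT alone and 4.76% in D6 siH3.3 alone. All 4 were weak in D6 siNT, where the median of complex I promoters was 1.47 CPM. With only the same number of strongest peaks in both libraries 0 members passed 2-fold (0.811% of all promoters), with only peaks of a stricter q-value 0 did (0.471%), and over a window of 500 bp 2 did (1.65%).

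Among those open in both, the highest ratio of D6 siH3.3 over D6 siNT was that of Ndufa12, a peripheral subunit related to Ndufaf2 (0.964 to 1.66 CPM, 1.72, interval 0.959 to 3.15). Ndufv3 (1.19 to 1.66 CPM, 1.39, interval 0.799 to 2.44) and Ndufs3 (0.780 to 1.07 CPM, 1.37, interval 0.683 to 2.79) came next. The lowest ratio was that of Ndufs7 (1.29 to 0.803 CPM, 0.625, interval 0.310 to 1.21), before Ndufv1 (1.61 to 1.02 CPM, 0.633, interval 0.342 to 1.14). The interval of each of these ratios held 1. By place, the core subunits had a median log2 ratio of -0.21, the Ndufb genes -0.25 and the peripheral accessory subunits 0.10.

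The strongest summit lay near the TSS for most members. Of 346 promoter values of complex I genes over the 9 libraries, 294 (85.0%) had their summit within 200 bp of the TSS, against 70.5% for all open promoters. Some genes had it elsewhere, on the same side in all 9 libraries: Ndufa5 between 340 and 409 bp, Ndufa11 between -700 and -610 bp, and Ndufa4 between -376 and -168 bp, on both sides of the 200 bp limit. Ndufa13 changed place, with a summit between 844 and 896 bp in 7 libraries and at -796 bp at D0 and at D9T-. Which starts the cells used was not measured here.

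**Figure D5:**
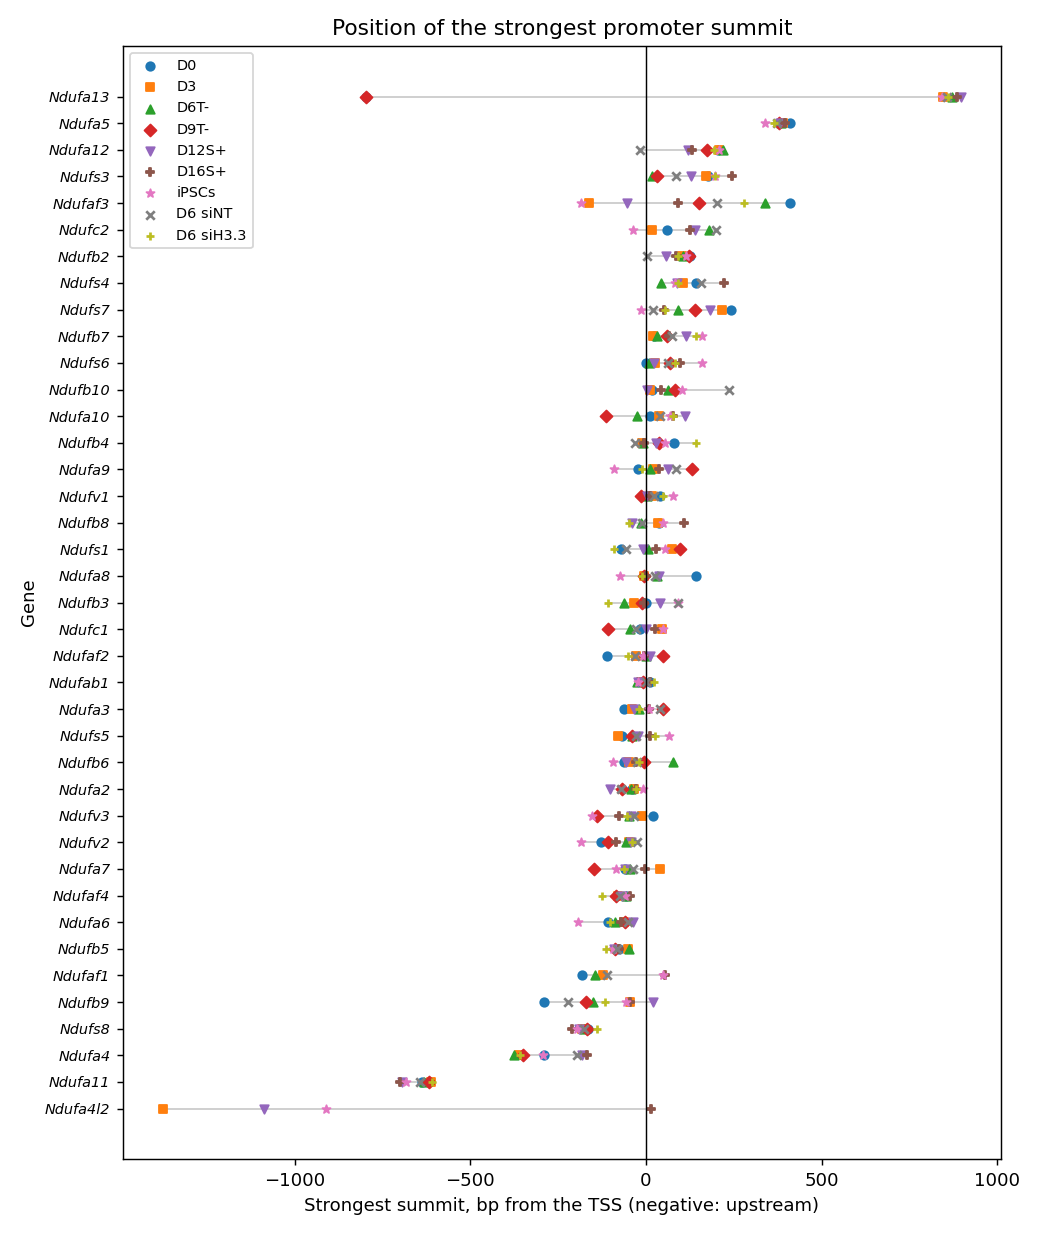
Distance of the strongest promoter summit from the TSS in bp (negative is upstream) for complex I genes (rows) in each library (symbols), with a grey line over the range. Most rows lie close to 0, Ndufa5 lies to the right and Ndufa11 to the left in every library, and Ndufa13 is the row with summits far out on both sides (its D0 and D9T- symbols coincide at -796).

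The window of 14 members also held the TSS of another protein-coding gene, in each case one read in the opposite direction. Pairs of this kind were Ndufs1 with the elongation factor gene Eef1b2 (3 bp apart), Ndufa7 with the ribosomal protein gene Rps28 (29 bp), Ndufb5 with the mitochondrial ribosomal protein gene Mrpl47 and Ndufaf2 with the DNA repair gene Ercc8. All 14 were open in all 9 libraries, as were 19 of the 27 without such a neighbour. Over all protein-coding genes the shares were 77.7% with and 37.6% without one. Their medians were higher at D3 (2.73 against 1.74 CPM) and closer together at D0 (0.914 against 0.883 CPM), at D9T- (1.36 and 1.36 CPM) and in iPSCs (1.09 against 0.941 CPM). Which of the paired genes an opening serves cannot be told apart in these data.

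Beyond the promoters, the number of peaks that overlapped the gene bodies differed between libraries. Some of these peaks had their summit outside the gene. Over the bodies of all members, 564.5 kb in total, there were 12 peaks at D0, 31 on day 3, 29 in D6T-, 3 in D9T-, 9 in D12S+ and 7 in D16S+ cells and 19 in iPSCs, with 5 in D6 siNT and 10 in D6 siH3.3. The total length counts the overlap of the Ndufb8 records in each. Away from the TSS of other protein-coding genes there were 11 at D0, 30 on day 3 and 27 in D6T- cells, with the rest unchanged. The whole libraries held 81364 merged peaks at D0, 107765 on day 3, 133132 in D6T- and 36708 in D9T- cells. There were 57533 in D12S+ and 50890 in D16S+ cells, 61615 in iPSCs, 46481 in D6 siNT and 47348 in D6 siH3.3. The counts in gene bodies were not scaled to these totals. The assembly factor gene Ndufaf2, with a body of 105.0 kb, held 8 body peaks at D6T-, 3 in D6 siH3.3 and 2 at D3. It held 1 each at D9T-, in iPSCs and in D6 siNT, and 0 at D0, D12S+ and D16S+. Its strongest, in an intron 22.8 kb downstream of the TSS, had 2.29 CPM at D6T- (chr13:108925836-108926270), 0.826 in D6 siNT and 0.750 in D6 siH3.3, and was called in no other library.

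Ndufs4, of similar length, held no more than 2 body peaks in any library. Ndufa10, a membrane arm subunit related to nucleoside kinases, had an intron peak 25.3 kb downstream of the TSS at D0 (0.851 CPM), D3 (0.860 CPM) and D6T- (1.59 CPM) and in no other library. Ndufa9 had an intron peak 25.8 or 25.9 kb downstream with 0.851 CPM at D0, 0.926 at D3, 2.15 at D6T-, 0.625 at D12S+, 0.459 in D6 siNT and 0.857 in D6 siH3.3, and none at D9T-, at D16S+ and in iPSCs. Ndufab1 had an intron peak between 2.39 and 2.6 kb downstream at D3, D6T-, D12S+, D16S+, in iPSCs and in both siRNA libraries, from 0.489 (iPSCs) to 1.14 CPM (D12S+), while D0 and D9T- had none. The lowest pileup called at D9T-, 0.530 CPM, was the highest such limit of the 9 libraries, and weaker peaks could not be called there.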

How the data were processed

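The peak files of 9 ATAC-Seq libraries, 1 per condition as the sample labels give it, were used. The authors mapped the reads to mm9 with STAR, removed duplicates with Picard and ran MACS2 2.1.0.20151222 with no control library, a q-value cutoff of 0.05 and tags extended to 200 bp. The deposited signal is the pileup, a count of the extended tags that cover a summit, which the authors did not scale for depth. The deposited fold enrichment, a ratio to tags spread evenly over the genome, was not used. Of the deposited −log10 values, that of the p-value was not used and that of the q-value served in a stricter alternative.

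Peaks that overlapped within a library were merged. The annotation was GENCODE vM1 (mm9), with the TSS at the 5′ end of the gene record. CPM divides the highest pileup of the peaks at a promoter by the total tags of the library, as the file headers record them. Ratios used promoters open in at least 1 of the 2 libraries, with the lowest pileup called in place of a missing peak, and medians used promoters open in both. A peak shorter than 200 bp was never called, so this stand-in is not a strict bound. The 95% intervals are exact binomial intervals conditional on the sum of both pileups. Tags are not independent molecules, and the intervals leave out variation between cultures.

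Libraries were compared in the order of the time course, at its ends, and between the siRNA libraries, without tests. The members and gene lists were chosen with earlier results of these data known. Genes named were members lacking a peak in some library, the 5 highest and 5 lowest by median, the 3 highest and 3 lowest ratios of 3 comparisons, the core subunits, the assembly factors, Ndufab1, Ndufa4 and Ndufa4l2, and up to 4 genes of each other list. Ndufa7, Ndufa9, Ndufa10, Ndufa11, Nrf1 and Yy1, and the genes with a motif, a shared window or a body peak, were named after their values were seen. The same holds for Cox4nb, Cox4i1, Atp5sl and Atp5l-ps1. 1 gene is not reported here by name or in the plots by gene, though it counts in the totals. List symbols not found in the annotation were matched through RefSeq synonyms. The alternatives were a −log10 q-value of at least 5, other windows and starts, the same number of strongest peaks, scaling to the median open promoter, a 1.5-fold limit, and leaving out genes with a shared window. The tools were matplotlib 3.10.9, scipy 1.17.1, pandas 2.3.3 and numpy 2.4.6 under Python 3.11.15, and the functions were tested on simulated data.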

Additional observations from a re-analysis of the deposited data

How the results depend on the processing

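Of 49 alternatives to the counts of complex I promoters, 38 left the count within 1.5 times and 11 moved it further. The 33 promoters open in all 9 libraries became 19 of 27 without genes whose window holds another protein-coding TSS, and 25 with a −log10 q-value of at least 5 (32.8% of all promoters). Leaving out D9T-, an alternative chosen after seeing the data, gave 35 open in the remaining libraries (45.2% of all promoters). For D0 to D3, 24 of 40 became 13 of 26 without shared windows. The count became 3 when levels were divided by the median of all open promoters (10.3% of all promoters). For D6T- to D9T- the count of 31 became 0 under that scaling (9.18%). For D0 to iPSCs, 3 of 40 became 10 at a 1.5-fold limit, where 44.2% of all promoters passed. Without shared windows the count became 1 of 26, and scaling gave 4 (10.9% of all), of which 1 was higher and 3 lower. For D6 siNT to D6 siH3.3 the count of 1 became 0 with the stricter q-value (0.471% of all), 0 with the same number of strongest peaks (0.811%), 0 with only genes open in both (0.861%), 2 with 500 bp on each side of the TSS (1.65%) and 6 at 1.5-fold (14%). The cause was not tested. Members at the lowest pileup called rest on 7 to 10 tags. No paired analysis was possible because each condition had 1 library and no test was run.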
